A study of Oryza sativa with 15 samples.

Results

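In rice hybrids between the subspecies japonica and indica, 238 loci were read almost only from the japonica allele in the endosperm, whichever parent was japonica. They were chosen by measured allele shares: a locus had to be in the tables of both cross sets, with at least 30 reads in both LR and RL and at least 20 in both YW and WY, and the japonica allele had to make up at least 90% of its reads in all 4 crosses. Of the 10849 loci in both tables, 9753 had enough reads, and 238 of these (2.44%) met the share rule. By the mirror rule, 63 loci were read almost only from the indica allele.

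The study made reciprocal crosses to find imprinted genes, whose expression depends on the parent an allele came from. LR is a japonica Liuqianxin-A mother with an indica Rongfeng-B father, RL is Rongfeng-A with Liuqianxin-B, YW is japonica Yu6-A with indica Wufeng-B, and WY is Wufeng-A with Yu6-B. Every mother was a cytoplasmic male sterile line, so each cross also carries the cytoplasm of its own mother, and the cytoplasm and the direction of a cross cannot be told apart. RNA came from endosperm taken 5 days after fertilization, with 20 to 30 endosperms pooled per library (3 libraries of LR, 3 of RL, 2 of YW and 2 of WY), and the allele counts of a cross are pooled over its libraries. The 5 libraries of inbred controls were not used here.

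Endosperm, the starchy tissue that feeds the embryo of a cereal seed, receives 2 genome copies from the mother and 1 from the father. An imprinted gene follows the parent, so its favoured subspecies changes when the cross is reversed. A locus that follows the subspecies instead keeps the same allele in both directions, through differences in the sequence or the presence of the gene itself or of its regulatory DNA. If such a locus is read from the japonica allele alone, the number of active copies is 2 with a japonica mother and 1 with an indica mother.

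Reads summed over SNPs came to between 29149713 and 34433249 per cross. Of the listed endosperm regulator and transporter genes, 8 of 8 were in the table of LR and RL and 7 of 8 in that of YW and WY. Presence there needs only a SNP between the parents with at least 11 reads in each cross, so it does not show the tissue. Prolamin and glutelin storage protein loci took between 10.3% (LR) and 25.02% (YW) of the reads. Markers of the green pericarp, a maternal tissue, took 0.0108% (LR), 0.00427% (RL), 0.0181% (YW) and 0.00801% (WY) of the reads. They were only 2 loci in LR and RL and 4 in YW and WY, so their values are not comparable between the sets. The typical locus of YW stood apart, with a median japonica (maternal) share of 74.9% against 67.1% in LR. Without YW in the rule, 240 loci met it in place of 238.

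The japonica share of these loci was far from the threshold in most cases. The shares chose the loci, so they are a description. With a japonica mother the median share was 99.8% (LR) and 99.4% (YW), and with an indica mother 99.2% (RL) and 99.4% (WY). Over all loci tested these medians were 67.1%, 74.9%, 36.2% and 36.8%. In 80 loci the share was at least 99% in every cross, and in 54 the lowest of the 4 shares was under 95%. No indica read was counted at 89 loci of LR, 75 of RL, 59 of YW and 76 of WY, and 20 loci had none in any of the 4 crosses.

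**Figure D1:**
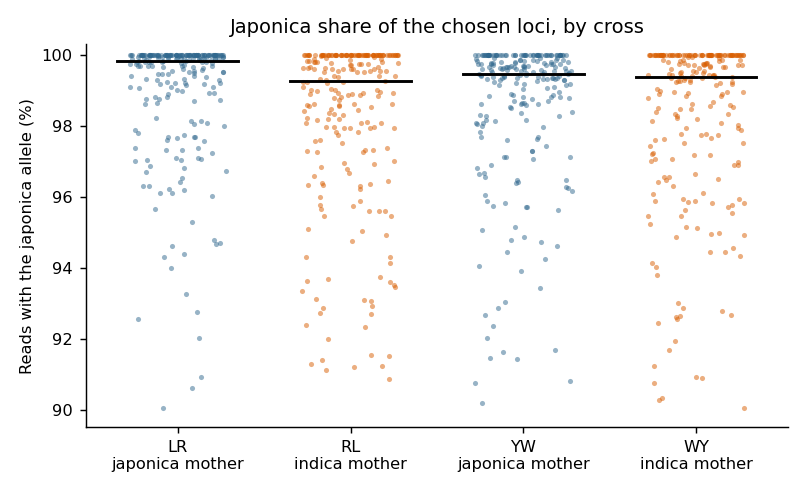
Percentage of reads with the japonica allele at each of the 238 loci, in the 4 crosses; each point is a locus with the replicate libraries pooled, and the bar is the median. The axis starts just below the 90% threshold, and the medians lie between 99.2% and 99.8% whether the mother was japonica or indica.

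Among the 20 loci with no indica read, LOC_Os05g04215 (chromosome 5, SNPs from 1910373 to 1910395), an expressed protein with no named function, had the most reads. The 893 reads of LR, 356 of RL, 810 of YW and 482 of WY were all japonica, which allows an indica share of up to 0.336%, 0.843%, 0.370% and 0.622%. Such limits take each count as a separate read. A read over several SNPs counts at each, so the limits given here can be too low. LOC_Os11g29050 (chromosome 11, 16824949 to 16826188), of the NBS-LRR family of disease resistance receptors, had 445, 373, 524 and 326 reads in LR, RL, YW and WY with no indica read, which allows up to 0.674%, 0.804%, 0.573% and 0.920%. The retrotransposon locus LOC_Os04g21580 had 158, 75, 835 and 201 reads, all japonica. The retrotransposon locus LOC_Os12g21820 and the expressed protein LOC_Os09g09210 completed the 5 with most reads.

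Just inside the threshold stood LOC_Os06g11600, a growth regulator related protein, with 90.04% japonica reads (LR), 93.4% (RL), 91.6% (YW) and 96.1% (WY). LOC_Os05g35444 had its lowest share, 90.1%, in WY, and LOC_Os12g06930 had 90.2% in YW with no indica read in LR or RL. Just outside were LOC_Os12g28270, an amidohydrolase, with 89.9% in WY and between 95.9% and 97.8% in the other crosses, LOC_Os06g23870 with 89.9% in WY, and LOC_Os06g48235 with 89.3% in RL.

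The rule needed both cross sets, which use different parents. By shares in LR and RL alone, 274 loci met it, and 86.9% of them also met it in YW and WY. By YW and WY alone 353 loci met it, and 67.4% of them were also japonica-only in LR and RL. The 36 loci found in LR-RL only still leaned to japonica in the other set, with median shares of 90.6% in YW and 83.9% in WY. The 115 loci found in YW-WY only did not: their medians were 71.7% in LR and 40.3% in RL, near those of all loci tested.

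Most of the 238 loci had no known function. By the annotation in the tables, 145 (60.9%) were expressed or hypothetical proteins, against 22.6% of all loci tested. Transposon or retrotransposon loci, which derive from mobile DNA, numbered 26 (10.9%, against 2.51%). NBS-LRR or other disease resistance loci numbered 3 (1.26%, against 0.482%), namely LOC_Os11g29050, LOC_Os11g36410 and LOC_Os05g15040. Outside the expressed proteins and transposon loci, 67 loci had an annotated function.

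Among the named functions, 10 loci belonged to the F-box, BTB, ubiquitin or proteasome class (4.202%, against 4.70% of all loci) and 8 were kinases or receptor kinases (3.36%, against 4.35%). Transporters, channels or ATPases numbered 7 (2.94%, against 3.15%) and redox enzymes 6 (2.52%, against 3.74%). Several classes were scarcer than among all loci. Other annotated loci numbered 19 (7.98%, against 37.4%) and transferases 1 (0.420%, against 3.40%). There were 4 transcription factor, zinc finger or DNA binding loci (1.68%, against 5.85%) and 2 of ribosome or translation (0.840%, against 3.33%). Pentatricopeptide repeat loci numbered 1 (0.420%, against 1.32%), and 0 of 259 loci were of RNA binding, splicing or helicase. The shares of the classes are bound together, so a larger share of expressed proteins lowers the others. The 63 indica-only loci held 32 expressed or hypothetical proteins, 7 transposon loci and 3 of disease resistance. These are counts with no test of enrichment, and the make-up is not shown to be particular to the japonica-only loci.

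The locus with most reads was a glutelin gene, LOC_Os02g15150 (chromosome 2, 8446826 to 8448489), of the main storage protein family of the rice grain. It had 269675 (LR), 307973 (RL), 559117 (YW) and 327963 (WY) reads, of which the japonica allele made up 99.2% (Wilson 95% interval 99.2 to 99.2), 96.2% (96.1 to 96.3), 98.9% (98.8 to 98.9) and 97.2% (97.1 to 97.2). With it, the 238 loci took 2.61% of the reads of LR, 1.99% of RL, 4.10% of YW and 2.21% of WY; without it 1.70%, 1.09%, 2.18% and 1.09%. Glutelin genes are near copies of each other, so reads could be split among them. Next came 2 expressed proteins, LOC_Os04g23140 and LOC_Os10g35100, the kinase LOC_Os01g49529 (OsWAK10d, of a family named after receptors that bind the cell wall) and the retrotransposon locus LOC_Os07g39390.

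Per SNP, which stands in for length, the loci were read less deeply than others. The median of the mean reads per SNP, per 1000000 reads of a cross, was 2.26 over the 238 loci (quartiles 1.14 and 4.29) and 3.48 over all loci tested (1.67 and 8.80). With a japonica mother it was 2.03 (LR) and 3.09 (YW), and with an indica mother 1.497 (RL) and 1.48 (WY). The same direction held over all loci tested, with medians of 3.47 (LR) and 4.15 (YW) against 2.90 (RL) and 2.88 (WY).

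SNPs between the parents were listed at a higher density in the transcripts of these loci. Density was taken between the outer SNPs only, so a few SNPs close together give a high value. Among loci with at least 3 SNPs, the density between the first and the last SNP was a median of 18.7 SNPs per kb of transcript (quartiles 11.7 and 29.2) in the 195 such loci of LR-RL, against 5.03 (3.24 and 9.32) over 6993 loci tested. In YW-WY it was 18.7 in 186 loci, against 4.99. Within expressed or hypothetical proteins the medians were 20.7 for japonica-only loci and 7.11 for all in LR-RL, and within transposon loci 15.4 and 5.66. In the remaining classes they were 14.9 and 4.70. Loci read almost only from the indica allele had a high density as well, 16.2 and 15.2 in the tables of LR-RL and YW-WY. The alignment of reads from alleles listed with so many SNPs was not tested. An indica allele that is missing, one not transcribed and one whose reads did not align cannot be told apart in these counts.

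**Figure D2:**
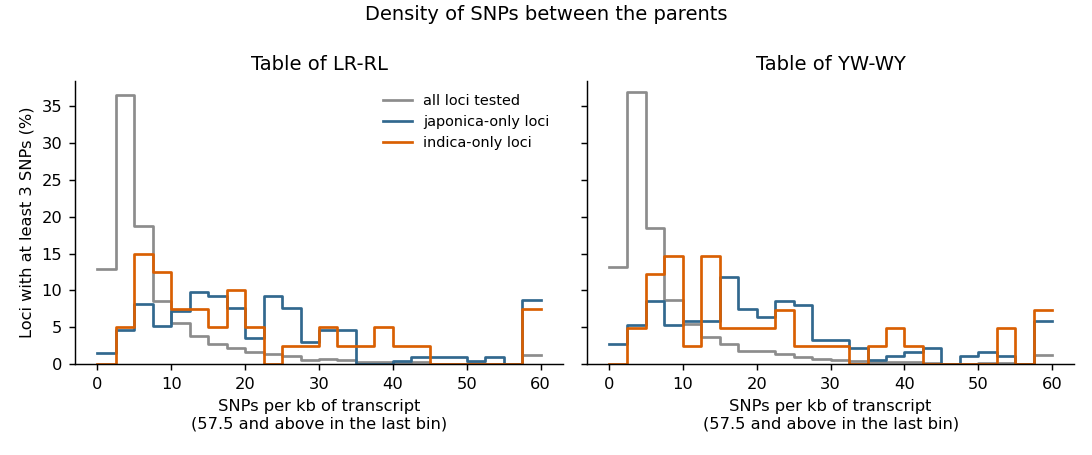
Percentage of loci by the number of SNPs between the parents per kb of transcript, in the tables of LR-RL and YW-WY, for loci with at least 3 SNPs; grey is all loci tested, blue the japonica-only loci and orange the indica-only loci. The medians of the japonica-only loci are 18.7 in both tables, and those of all loci 5.03 and 4.99.

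The defensin-like gene LOC_Os11g08220 (DEFL28, chromosome 11, 4315092 to 4315483) had 54.3 SNPs per kb (LR-RL) and 48.5 (YW-WY). The small heat shock protein gene LOC_Os01g08860 had 24.8 and 21.8. The glutelin LOC_Os02g15150, with 5.98 and 6.73, and LOC_Os11g29050, with 2.42 in both, lay nearer to the typical locus.

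The loci were also shorter between their outer SNPs and mostly without introns there. In LR-RL the median stretch of transcript from first to last SNP was 578 bases, against 1146 over all loci tested. The SNPs spanned no intron, with the same distance on the chromosome and in the transcript, at 138 of 195 loci (70.8%), against 23.7% of all loci. The shares in YW-WY were 67.7% and 23.9%. The indica-only loci had shorter stretches still, with medians of 403.5 and 380 bases in LR-RL and YW-WY, and 45% and 48.8% of them spanned no intron. Among the remaining classes, without expressed proteins and transposons, 45.1% of the japonica-only loci and 18.9% of all loci spanned no intron in LR-RL. A shorter stretch has less room for an intron, and stretches of like length were not compared.

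The SNPs of a locus mostly leaned the same way. Of 2048 SNPs in LR-RL with at least 20 reads in each cross, 94.8% had a japonica share of at least 90% in both, and 92.5% of 1953 did in YW-WY. With a share above 50% the numbers were 99.7% and 99.6%, and the exceptions lay in 7 loci of LR-RL and 4 of YW-WY. The reference base was japonica at 2599 of 2605 SNPs of LR-RL in these loci and indica at 6 (0.230%, against 3.13% over all loci tested). At those 6 SNPs, in 6 loci, 98.99% of 296 reads in LR and 99.3% of 298 in RL were japonica. The loci were chosen for this share, so these values are a description and say nothing of an effect of the reference allele, which was not tested.

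The ratio of total reads between the directions of a cross did not enter the rule. The read floor of each cross did, and it leaves out loci with few reads in 1 direction. The question was whether the total of both alleles followed the japonica gene copies, 2 in LR and YW against 1 in RL and WY, which is a log2 ratio of 1. Totals were scaled between crosses by the trimmed mean of M-values (TMM), which sets the typical locus near 0. The median log2 ratio over the 238 loci was 0.41 for LR over RL (1.32-fold) and 0.63 for YW over WY (1.55-fold), against -0.0017 and 0.06 over all loci tested. Scaled by library totals the medians were 0.64 and 1.02, against 0.24 and 0.45 over all loci, so how near they lie to 1 depends on the scaling. The TMM-scaled quartiles were -0.11 and 0.95 in LR-RL and -0.0027 and 1.23 in YW-WY. The indica-only loci lay on the opposite side, with medians of -0.78 and -0.99. The pericarp markers given above were also higher in LR and YW, and the endosperm regulator and transporter markers lower, at 1.42% (LR) against 2.01% (RL) and 0.476% (YW) against 0.781% (WY) of the reads. The storage protein loci took 10.3% in LR against 22.9% in RL, and 25.02% in YW against 24.8% in WY. The part of these differences in the totals was not tested.

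The total was higher with the japonica mother at 171 loci in LR-RL (71.8%, against 49.9% of all loci) and at 178 in YW-WY (74.8%, against 53.4%). In both sets it was higher at 146 loci (61.3%, against 34% of all) and lower at 35 (14.7%, against 30.7%). A ratio of at least 2 to 1 was reached by 58 loci in LR-RL (24.4%, against 11.7%) and by 74 in YW-WY (31.1%, against 9.06%). Over the 238 loci the ratios of both sets correlated with r = 0.55 (Pearson) and rho = 0.50 (Spearman), against 0.44 and 0.42 over all loci tested. This describes loci of the same pooled crosses, which are not independent.

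The japonica allele of the typical biallelic locus showed a larger step. Counting japonica reads only, the median log2 ratio over all loci tested was 0.84 for LR over RL and 1.04 for YW over WY. Over the 238 loci it was 0.43 and 0.64. The step hardly differed with the purity of the share: the median in LR-RL was 0.42 for the 54 loci with a lowest share under 95%, 0.40 for the 104 between 95% and 99% and 0.48 for the 80 above. In YW-WY these were 0.57, 0.66 and 0.60.

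**Figure D3:**
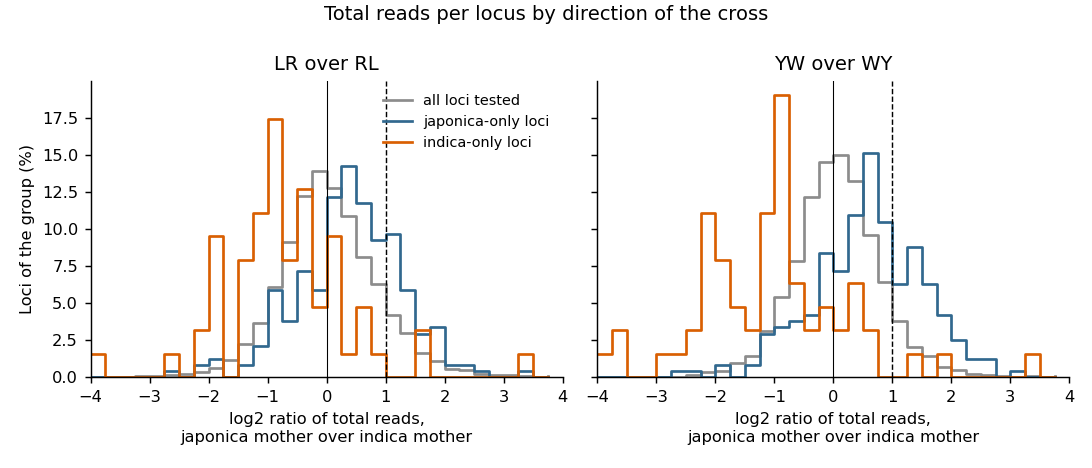
Percentage of loci by log2 ratio of total reads (TMM-scaled) with a japonica mother over an indica mother, for LR over RL and YW over WY; the solid line is no difference and the dashed line 2 to 1. The japonica-only loci (blue) have medians of 0.41 and 0.63 under this scaling (0.64 and 1.02 with library totals), right of all loci tested (grey), and the indica-only loci (orange) lie to the left.

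With the 2 cross sets as replicates, an edgeR quasi-likelihood test found 18 of the 238 loci (7.56%) higher with the japonica mother at an adjusted p under 0.05, against 1.51% of all loci tested. It found 3 (1.26%) lower, against 0.933% of all. Each cross is 1 pooled column, so the test leaves 1 residual degree of freedom per locus. It covers the spread between the cross sets, not that between plants. The count of 18 was 57 (23.9%, against 7.64% of all loci) with library totals in place of TMM and 29 (12.2%, against 3.02%) with DESeq2. It was 9 with no read floor (3.78%, against 0.691%), 9 with 1 SNP per locus (3.78%, against 1.39%), and 0, as over all loci, with no term for the cross set. Library totals move the median of all loci by 0.24 in LR-RL and 0.39 in YW-WY, and all-locus calls from 147 higher and 91 lower to 745 and 106.

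Both loci classed as chaperones by annotation were among the 18. Small heat shock proteins keep other proteins from aggregating under stress. The small heat shock protein gene LOC_Os01g08860 (hsp20/alpha crystallin family, chromosome 1, 4449090 to 4449855) had 2956 (LR), 483 (RL), 2682 (YW) and 254 (WY) reads. Both japonica-mother crosses lay far above both others. The log2 difference was 2.80 ± 0.35 (SE; edgeR adjusted p = 0.00752), higher in 2 of 2 sets. Its japonica share ranged from 91.5% in RL to 99.6% in WY.

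LOC_Os10g37060, annotated only as a T-complex protein, had 1116, 232, 2664 and 581 reads in LR, RL, YW and WY, and was higher by 2.03 ± 0.34 (SE; edgeR adjusted p = 0.0198). The defensin-like gene LOC_Os11g08220, of a family of small antimicrobial peptides, had 2455, 247, 6177 and 716 reads. It was higher by 3.01 ± 0.37 (SE; edgeR adjusted p = 0.00752), and its japonica share was 96.5%, 92.7%, 96.4% and 93.0%.

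F-box proteins choose targets for ubiquitin ligases. OsFBX142 (LOC_Os04g40370, chromosome 4, 23998900 to 24002084) had 2576 (LR), 730 (RL), 1947 (YW) and 518 (WY) reads and was higher by 1.66 ± 0.33 (SE; edgeR adjusted p = 0.0323). OsFBX351 (LOC_Os10g03780), named after its values were seen, had 238, 73, 217 and 42 reads and was higher by 1.83 (edgeR adjusted p = 0.0398). OsFBX343 (LOC_Os10g03600), the F-box locus with most reads, had 4343, 3454, 7925 and 3017 and did not pass (edgeR log2 difference 0.66 ± 0.37 SE, adjusted p = 0.373). The medians of the class were 0.47 (LR-RL) and 0.85 (YW-WY), against -0.11 and -0.08 over the 458 loci of the class tested. Of its 10 japonica-only loci 2 passed, both higher, against 1.51% of all loci tested called higher. F-box genes form large families, so reads could be shared with paralogs.

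The flavin-containing monooxygenase LOC_Os04g14710 (chromosome 4, 8268120 to 8268454) had 679, 136, 890 and 248 reads in LR, RL, YW and WY and was higher by 1.87 ± 0.38 (SE; edgeR adjusted p = 0.0344). The call was lost with 1 SNP per locus (edgeR adjusted p = 0.0541). The next locus tested along the chromosome, the expressed protein LOC_Os04g14730, 6.31 kb away, was also japonica-only and higher, by 1.61 (edgeR adjusted p = 0.0477), with 1296, 346, 250 and 77 reads.

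Transposon and retrotransposon loci went both ways. Their medians were 0.46 in LR-RL and 0.84 in YW-WY over 26 loci, against -0.01 and 0.24 over the 245 transposon loci tested. Of the 26, 17 and 20 were above 0 (49.9% and 53.4% of all loci tested). Calls were 3 higher and 1 lower (1.51% and 0.933% of all loci tested). LOC_Os06g29630, a transposon protein, had 468, 172, 876 and 120 reads in LR, RL, YW and WY and was higher by 1.95 ± 0.40 (SE; edgeR adjusted p = 0.0359). Its call was lost with no read floor (edgeR adjusted p = 0.0515) and with 1 SNP per locus (edgeR adjusted p = 0.0626). The other loci called higher, named after their values were seen, were the Ty1-copia loci LOC_Os04g49790 and LOC_Os08g28030. LOC_Os03g43490, a retrotransposon protein, had 313, 1450, 363 and 1052 reads and was lower by a log2 difference of -2.08 ± 0.34 (SE; edgeR adjusted p = 0.0181), although 99.3% or more of its reads were japonica in every cross. Reads of repeated elements can belong to more than 1 copy.

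The other loci with lower totals from a japonica mother were LOC_Os05g40650 and LOC_Os07g39260. LOC_Os05g40650, annotated as ATCHX, a name for cation/proton exchangers in Arabidopsis, had 1009 (LR), 3400 (RL), 1268 (YW) and 6168 (WY) reads at a single SNP (edgeR log2 difference -2.22 ± 0.38 SE, adjusted p = 0.0227). LOC_Os07g39260, an expressed protein, had 559, 1410, 277 and 1110 reads (edgeR log2 difference -1.87 ± 0.37 SE, adjusted p = 0.0327). At both, and at LOC_Os03g43490, the scaled total was higher with japonica as the father than with japonica as the mother. Reads per gene copy were not measured, and the source of these differences was not tested.

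Of the 238 loci 7.56% were called higher, against 1.51% of all loci tested. The 145 expressed or hypothetical proteins, 60.9% of the 238, gave 9 of the 18 higher calls and 1 of the 3 lower. Their medians were 0.43 in LR-RL and 0.63 in YW-WY, against -0.04 and 0.08 for all loci of the class. Among them LOC_Os06g41120 and LOC_Os06g41240, neighbours on chromosome 6 named after their values were seen, were higher by 1.61 (edgeR adjusted p = 0.0398) and 1.57 (edgeR adjusted p = 0.0416).

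**Figure D4:**
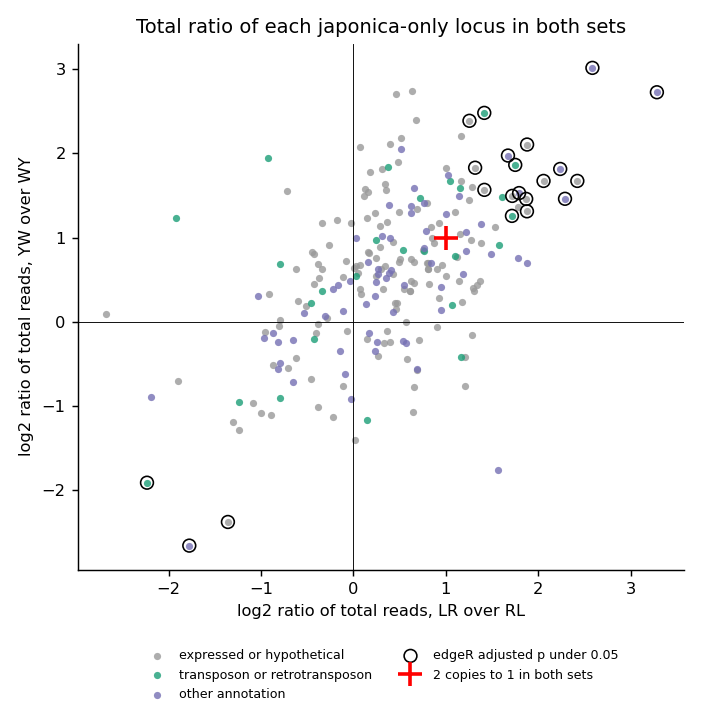
Log2 ratio of total reads with a japonica over an indica mother at each of the 238 loci, LR over RL on the horizontal and YW over WY on the vertical axis; colour gives the annotation class, open circles mark loci with an edgeR adjusted p under 0.05 and the red cross 2 copies to 1. The 18 loci called higher lie up and right of the cross, and the 3 called lower lie at bottom left.

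Several well-read loci with a named function did not pass. The stromal ascorbate peroxidase OsAPx5 (LOC_Os12g07830), which removes hydrogen peroxide in plastids, had 933, 351, 824 and 282 reads in LR, RL, YW and WY (edgeR log2 difference 1.28 ± 0.34 SE, adjusted p = 0.0723; with DESeq2 adjusted p = 0.0409). LOC_Os12g07500, annotated csAtPR5, had 9840, 4159, 9976 and 4279 (1.03 ± 0.38 SE, edgeR adjusted p = 0.172). OsWAK10d (LOC_Os01g49529) had 30978, 22896, 37990 and 19105 (0.51 ± 0.45 SE, edgeR adjusted p = 0.587). The histone gene LOC_Os01g05610 had 9358, 4774, 8382 and 5827 (0.55 ± 0.40 SE, edgeR adjusted p = 0.499).

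The glutelin LOC_Os02g15150 had a log2 ratio of -0.22 (LR-RL) and 0.39 (YW-WY; edgeR adjusted p = 0.961). The glutathione S-transferase LOC_Os10g38630, the C2H2 zinc finger gene LOC_Os11g38330 and the formyl transferase LOC_Os06g22560 had edgeR log2 differences of 0.89, 1.09 and 1.15 (adjusted p = 0.214, 0.139 and 0.0931). The peptide transporter LOC_Os01g68510 and the aspartic proteinase LOC_Os04g58070 had 0.44 and -0.50 (edgeR adjusted p = 0.514 and 0.525).

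The same edgeR fit was set against 2 to 1 in place of no difference. Totals at 5 of the 238 loci (2.10%, against 0.533% of all loci tested) were above 2 to 1, and at 51 (21.4%, against 49.3%) below it. The split moved with the scaling: with library totals 10 were above and 31 below (all loci 90 and 2173), and with DESeq2 3 were above and 52 below (all loci 45 and 4553). Those above in the edgeR fit were LOC_Os01g08860, LOC_Os11g08220, LOC_Os10g37060 and the expressed proteins LOC_Os03g37570 and LOC_Os04g02060, the last 2 named after their values were seen. Those below included 26 expressed or hypothetical proteins, 7 transposon loci and 3 of the 4 transcription factor or zinc finger loci, among them the general transcription factor subunit LOC_Os03g14720 (289, 580, 602 and 373 reads in LR, RL, YW and WY, edgeR adjusted p = 0.0206). The elongation factor LOC_Os01g53900, with 317, 542, 1041 and 1121 reads, was also below (edgeR adjusted p = 0.00551). The remaining loci did not differ detectably from 2 to 1, which does not show that they follow it.

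The loci were spread over all 12 chromosomes. They made up 4.51% of the loci tested on chromosome 12 (23 of 510), 4.24% on chromosome 11 (23 of 542), 3.801% on chromosome 4 (29 of 763) and 3.52% on chromosome 10 (21 of 596), against 2.44% in all. The lowest shares were 0.960% on chromosome 2 (12 of 1250), 1.40% on chromosome 9 (6 of 428) and 1.69% on chromosome 1 (24 of 1418). Of the 63 indica-only loci, 12 were on chromosome 3 (1408 loci tested), 7 on chromosome 10 (596), 5 on chromosome 11 (542) and 1 on chromosome 12 (510). Whether their spread differed from that of the japonica-only loci was not tested. The median total ratio of the japonica-only loci was above that of all loci on each of the 12 chromosomes in both sets, from 0.10 to 0.87 in LR-RL and from 0.32 to 1.30 in YW-WY.

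**Figure D5:**
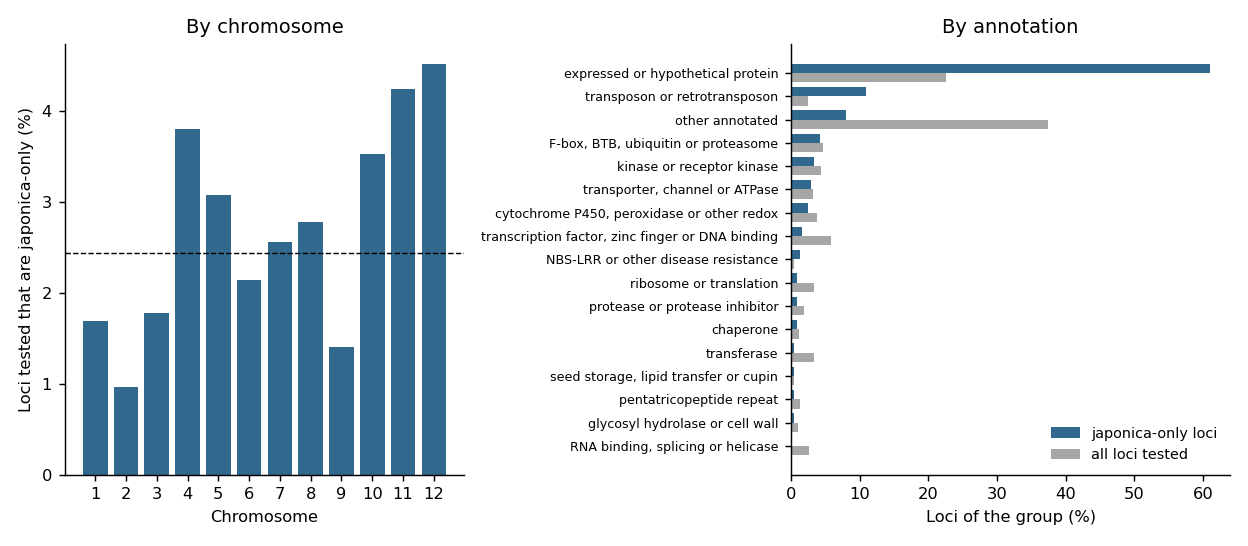
Left, percentage of the loci tested on each chromosome that were japonica-only, with a dashed line at 2.44% for all chromosomes; right, percentage of japonica-only loci (blue) and of all loci tested (grey) in each annotation class. Chromosomes 12 and 11 have the highest shares, and expressed or hypothetical proteins make up 60.9% of the japonica-only loci against 22.6% of all.

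Some of the loci were side by side. In 14 cases the next locus tested along the chromosome was also japonica-only, and these pairs held 28 loci. Taking the next locus among all those of either cross set, there were 10 such cases. Of all loci tested, 2.44% were japonica-only. The number of pairs under random placement was not worked out, so clustering was not tested. OsWAK10d (LOC_Os01g49529) and the protein kinase LOC_Os01g49614 lay 27.9 kb apart on chromosome 1, with japonica shares of at least 96.3% and 94.4%. On chromosome 11, LOC_Os11g04520 (TAP46, a regulatory subunit of protein phosphatase 2A) and the GRAS transcription factor LOC_Os11g04570 lay 40.7 kb apart. Their log2 total ratios were 0.43 and -0.97 in LR-RL. Over both sets their edgeR log2 differences were 0.27 and -0.58, and neither was called (edgeR adjusted p = 0.737 and 0.440). The malonyl-CoA decarboxylase LOC_Os09g23070 and the transporter LOC_Os09g23110 were 43.5 kb apart on chromosome 9. On chromosome 2 the cysteine synthase LOC_Os02g12900, which makes cysteine, had no indica read in any cross (131, 107, 205 and 106 reads in LR, RL, YW and WY) and lay 18.2 kb from the expressed protein LOC_Os02g12939.

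The retrotransposon locus LOC_Os08g20670 and LOC_Os08g20680 were 2.27 kb apart on chromosome 8. At LOC_Os05g32474 and the transposon locus LOC_Os05g32480, and at LOC_Os11g43914 and LOC_Os11g43920, the annotated loci overlap and share SNPs, so the same reads were counted at both. In all, 7 of the 238 loci shared a SNP position with another locus (2.94%, against 3.28% of all loci tested).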

How the data were processed

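The authors deposited, per the file headers, whole-number counts of reads with the maternal and the paternal allele at each SNP, with 1 column of each kind per cross, so replicates were pooled. Their p-values per SNP, also deposited, were not used. GATK 3.5, SAMtools 0.1.16, Bowtie2 2.2.1 and Trimmomatic 0.32 are listed, without roles, by the submitters' processing notes. For the genome build, nothing was given in the sources used here, and positions are as deposited. Every SNP has at least 11 reads in each cross of its table.

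Counts were summed per locus (transcript suffixes are left off). A read over several SNPs counts at each, so the counts are not independent reads. Wilson 95% intervals and floors (3 counts of the total) treat them as independent, so intervals can be too narrow and floors too low. At most they cover counting error. Totals were tested with edgeR 4.0.16 (R 4.3.3; quasi-likelihood, TMM, cross set plus direction as terms, Benjamini-Hochberg over 9753 loci, threshold 0.05). Ratios have 0.5 added to each count. The fits were also run on simulated data with 200 changed loci. The recovery in that run is not given here, so the power of the test is left unstated. DESeq2 1.42.0 was an alternative.

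Members, lists and classes were chosen with earlier results of these data known, and the word patterns of some classes were corrected after the annotations were seen. SNP density and introns were added then too. Members were named by a rule: most reads, highest and lowest total ratios, 2 per annotation class, neighbours, no indica reads, and nearest the threshold. Others are marked as named after their values were seen, as were LOC_Os05g15040 and the expressed proteins given as neighbours or in overlapping pairs. Second positions in the tables were taken as transcript positions, since their distances never exceeded those on the chromosome.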

Additional observations from a re-analysis of the deposited data

Results flagged for a closer look

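At 10 of the 238 loci the total moved opposite ways in the cross sets, by at least 0.5 (log2) each. The difference between the sets was not tested. Ratios of unlike sign, of any size, occurred at 57 of the 238 loci and at 3449 of the 9753 loci tested. Unlike signs were thus less frequent among the 238 than among all loci tested. The count by the 0.5 rule over all loci is not given here. The 10 are therefore not shown to be a trait of the japonica-only loci. The retrotransposon locus LOC_Os01g37350 had a log2 total ratio of -1.92 in LR-RL (269 reads in LR, 1000 in RL) and 1.23 in YW-WY (1717 and 562). The CACTA transposon locus LOC_Os12g31660 had -0.92 and 1.94, and LOC_Os12g32040, annotated as a ZmEBE-1 protein after a maize endosperm gene, had 1.56 and -1.76 with 30 reads in RL. The potassium channel LOC_Os03g28120 had 0.69 and -0.56, and the transposon locus LOC_Os05g32480 had -0.79 and 0.68. For the expressed proteins the ratios in LR-RL and YW-WY were -0.62 and 0.63 at LOC_Os01g26039, 0.69 and -0.57 at LOC_Os02g47330, and 1.21 and -0.76 at LOC_Os03g58372. They were 0.65 and -1.08 at LOC_Os07g23120 and 0.65 and -0.78 at LOC_Os08g01514.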

How the results depend on the processing

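With a share of at least 0.99 the rule left 80 loci in place of 238; under the other share and read floors, 1 SNP per locus or 1 cross set it left between 159 and 353. The SNP with most reads gave 215 loci, of which 157 were among the 238. Median total ratios kept their sign; with library totals they were 0.64 in LR-RL and 1.02 in YW-WY. Higher totals were called at 57 loci with library totals (holding all 18; 745 of all loci), 29 with DESeq2 (17 of the 18; 295 of all), 9 with no read floor (75 of all), 9 with the SNP with most reads (136 of all) and 0 with no term for the cross set (51 with an unadjusted p under 0.05, edgeR, and 1041 of all, either direction). Loci departing from 2 to 1 numbered 41 to 55, against 56, but 0 with no term for the cross set (44 with an unadjusted p under 0.05, edgeR, and 4116 of all). SNPs at 90% japonica or more made up 95.8% with at least 50 reads in LR-RL, and those above 50% made up 99.7% and 99.6%. The 50% limit, leaving YW out of the rule, and leaving out transposon loci (15 higher calls) or loci sharing SNPs (18) were chosen after seeing the data. Depth per SNP was 3.08 (per 1000000 reads) at the SNP with most reads, against 4.85 over all loci. The causes were not tested. Log2 differences that changed sign were all uncalled: 0.13 at LOC_Os04g23140, 0.24 at LOC_Os03g27830, 0.20 at LOC_Os08g35020, 0.26 at LOC_Os05g32480 and 0.067 at LOC_Os09g23110 with library totals; -0.040 at LOC_Os10g27310 and 0.069 at LOC_Os03g27830 with the SNP with most reads; and -0.018 (DESeq2) and -0.0065 (no set term) at LOC_Os07g31310. The edgeR fit pairs the crosses by set, and without that pairing no locus is called. By replicate number, no paired analysis was possible because the deposited columns pool the replicates; leaving out replicates was not run for the same reason.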
